A study of Mus musculus with 15 samples.

Results

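The genes described here are 10 chemokines that microglia are known to make: Ccl2, Ccl7, Ccl12, Ccl3, Ccl4, Ccl6, Ccl9, Cxcl16, Cxcl10 and Cxcl2. They were taken by gene symbol from the deposited tables and are 10 of the 35519 genes with transcripts in them. Of the 10, 7 were among the 6521 genes that passed the filter on low counts and were tested, and Ccl7, Cxcl10 and Cxcl2 did not pass it. Sorted retinal microglia were sequenced as bulk RNA in 15 libraries, 1 per retina. All retinas came from C57BL/6 mice aged 12 weeks. Retinas of Apoe-/- mice had received microbeads (n = 4) or a sham injection (n = 4), and retinas of wild-type (WT) mice had received microbeads (n = 3) or a sham injection (n = 4). Microbeads injected into the eye block the outflow of its fluid and raise the pressure inside it, which models glaucoma. The Apoe-/- line is not described further in the labels, and how long after the injection retinas were taken is not given there. Cells were gated as Fcrls+, CD11b+ and Ly6c-, which is meant to keep resident microglia and leave recruited monocytes out.

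Chemokines are small secreted proteins that attract white blood cells through receptors coupled to G proteins. Several of them are best known for drawing monocytes and T cells to injured tissue, and resident microglia are an early source of them in the injured retina and brain. Many chemokine genes are switched on by the transcription factors NF-kB, AP-1 and the interferon-activated factors, so they can be transcribed soon after a stimulus.

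The start sites of 4 of the chemokines are shown because their promoters differ in which of these factors' motifs they hold. The windows run from 250 bases before to 50 bases after the start, 5′ to 3′ on the strand of the gene, and come from RefSeq on GRCm38.p6, which held 6 of the 10 genes. Capitals mark matches to the NF-kB motif or, in Cxcl10, also to the interferon-stimulated response element TTTCNNTTTC. The Ccl12 window is chr11:82101595-82101894 on the plus strand and that of Ccl3 is chr11:83649329-83649628 on the minus strand. The Cxcl10 window is chr5:92348840-92349139 on the minus strand and that of Cxcl2 is chr5:90903649-90903948 on the plus strand.
Ccl12: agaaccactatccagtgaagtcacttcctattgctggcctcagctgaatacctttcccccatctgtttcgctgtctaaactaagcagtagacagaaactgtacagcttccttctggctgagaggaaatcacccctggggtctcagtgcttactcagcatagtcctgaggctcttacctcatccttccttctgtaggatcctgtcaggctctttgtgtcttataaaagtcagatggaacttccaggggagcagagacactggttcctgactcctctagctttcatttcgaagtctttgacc
Ccl3: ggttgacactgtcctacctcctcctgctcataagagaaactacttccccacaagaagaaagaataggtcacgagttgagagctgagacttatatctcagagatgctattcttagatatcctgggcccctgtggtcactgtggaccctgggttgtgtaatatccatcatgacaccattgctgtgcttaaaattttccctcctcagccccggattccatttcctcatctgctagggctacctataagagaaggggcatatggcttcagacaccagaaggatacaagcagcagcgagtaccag
Cxcl10: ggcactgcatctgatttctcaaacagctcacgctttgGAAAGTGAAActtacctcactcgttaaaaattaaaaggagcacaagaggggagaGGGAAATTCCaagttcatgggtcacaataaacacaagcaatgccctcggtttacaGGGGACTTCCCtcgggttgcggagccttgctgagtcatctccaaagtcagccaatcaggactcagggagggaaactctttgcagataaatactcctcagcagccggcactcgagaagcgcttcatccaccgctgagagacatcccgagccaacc
Cxcl2: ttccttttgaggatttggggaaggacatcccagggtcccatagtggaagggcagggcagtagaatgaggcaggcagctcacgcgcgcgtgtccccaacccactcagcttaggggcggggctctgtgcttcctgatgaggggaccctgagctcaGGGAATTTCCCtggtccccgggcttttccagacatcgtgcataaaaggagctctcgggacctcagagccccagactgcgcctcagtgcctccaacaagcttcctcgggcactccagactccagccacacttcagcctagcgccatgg
Both strands were searched for 4 motifs, and matches that overlap count as 1 promoter with a match. The NF-kB motif was found in 3 of the 6 promoters (Ccl9, Cxcl10 and Cxcl2), against 8.46% of 32851 mouse promoters of the same length. The response element was found in 1 of 6 (Cxcl10), against 3.44% of all promoters. The AP-1 motif TGANTCA was found in 2 of 6 (Ccl9 and Cxcl10), against 7.81%, and TATAAA in 2 of 6 (Ccl12 and Ccl9), against 13.6%. No match to any of the 4 motifs was found in the windows of Ccl3 and Ccl6, which says only that these letters are not in those 300 bases.

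The libraries held 458303 to 714838 reads assigned to genes. Major satellite repeats, annotated as 12 gene models, took 40.77 to 74.43% of them. Library sizes scaled by TMM, a normalisation that is robust to a few very abundant genes, were lowest in Apoe-/- sham library 2 (225227) and highest in WT microbead library 2 (1000258). Levels below are CPM, counts relative to that scaled size, and a gene with 0 reads could still lie at 3 to 13.3 CPM, taking 3 reads as the limit. Apoe had 3 to 5 reads in Apoe-/- microbead libraries and 0 to 6 in Apoe-/- sham libraries, against 3894 to 15125 in WT microbead and 667 to 1225 in WT sham libraries. Reads of all 10 microglial marker genes (Fcrls, P2ry12, Tmem119 and others) were found in every group, with a summed level of 6800 to 13900 CPM. The 10 markers of monocytes, of which 8 or 9 had reads in a group, summed to 18 to 138 CPM over all libraries. The labels do not say that retinas came from separate mice, so p-values measure only the spread between these libraries, part of which may be technical. In bulk RNA, fewer cells that make a chemokine and less of its RNA per cell cannot be told apart.

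No chemokine passed the test in either genotype at an adjusted p of 0.05 (edgeR's quasi-likelihood test, Benjamini-Hochberg adjustment over 6521 genes). Between Apoe-/- microbead and Apoe-/- sham libraries 0 of 7 were called, where the share of all genes called was 0%. Between WT microbead and WT sham libraries 0 of 7 were called, where that share was 0.199%, or 13 genes. The median log2 fold change of the 7 was 1.00 in Apoe-/- retinas, against 0.0079 over all genes, and 6 of 7 were positive, as were 50.8% of all genes. In WT retinas the median was 1.12, against -0.01 over all genes, and 5 of 7 were positive, as were 49.1% of all genes. At an unadjusted p of 0.05 the test passed 1 of 7 in Apoe-/- (Ccl12) and 2 of 7 in WT (Cxcl16 and Ccl6), with 6.95% and 7.87% of all genes passing. Microbead libraries all lay above sham libraries for 1 of 7 members in Apoe-/- retinas (Ccl12), as for 1.55% of all genes, and for 1 of 7 in WT retinas (Cxcl16), as for 6.32% of all genes.

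**Figure D1:**
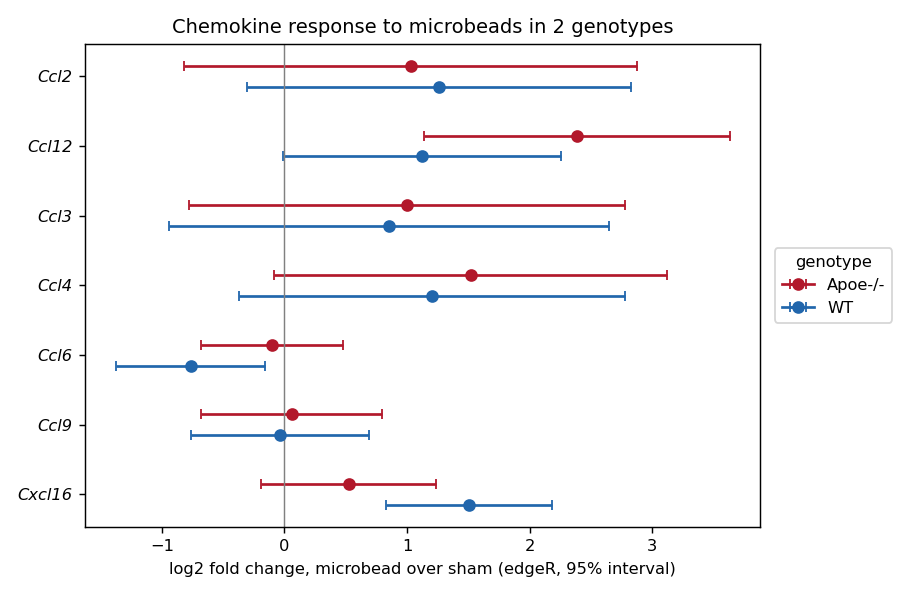
Log2 fold change of microbead over sham for the 7 tested chemokines, Apoe-/- above WT in each row, with the 95% interval of the edgeR fit to 15 libraries. The intervals of Ccl12 in Apoe-/- and of Cxcl16 and Ccl6 in WT leave out 0, and those of the other pairs include it.

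Among the attractants of monocytes, Ccl12 showed the widest separation in Apoe-/- retinas. Ccl12 encodes monocyte chemotactic protein 5 of the mouse, a ligand of Ccr2, and lies on mm10 chromosome 11 from 82101845 to 82103400. Its level was 64.2, 117, 159 and 188 CPM in the 4 Apoe-/- microbead libraries, against 16.7, 8.88, 22.6 and 49.6 CPM in the 4 Apoe-/- sham libraries. Every microbead library was above every sham library. The fit gave a log2 fold change of 2.39 (SE 0.60, 95% interval 1.14 to 3.63), about 5.23-fold, with an unadjusted p of 0.000723 that ranked 3 of 6521 genes. After adjustment over all genes the edgeR p was 0.7. With no filter on low counts, a fit to 28112 genes, the log2 fold change was 2.52 and the adjusted p 3.93e-07 in edgeR. The SE in that fit was 0.39, against 0.60 above, so the call came with a smaller SE and a similar fold change. Under all other alternatives run the adjusted p was 0.197 or more.

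In WT retinas Ccl12 stood at 57.9, 213 and 224 CPM in the 3 microbead libraries, against 54.7, 57.7, 164 and 19.4 CPM in the 4 sham libraries. The groups overlapped: microbead library 1 was at the level of sham libraries 1 and 2, and sham library 3 was close to the 2 higher microbead libraries. The log2 fold change was 1.12 (SE 0.54, adjusted p = 0.635 in edgeR), and 1.88 without sham library 3. The difference between the responses, Apoe-/- minus WT, was 1.26 on the log2 scale (95% interval -0.43 to 2.95, adjusted p = 1 in edgeR), so the wider separation in Apoe-/- was not shown to differ from that in WT. Apoe-/- sham libraries averaged 24.4 ± 17.7 CPM and WT sham libraries 74.0 ± 62.6 CPM (SD, n = 4 each), a log2 difference of -1.58 (SE 0.60, unadjusted p = 0.0159, adjusted p = 0.555 in edgeR). Apoe-/- microbead libraries averaged 132 ± 53.9 CPM (SD, n = 4) and WT microbead libraries 165 ± 92.9 CPM (SD, n = 3), a log2 difference of -0.31 (SE 0.54).

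Ccl2, the main ligand of Ccr2, in the same cluster as Ccl12 on chromosome 11 (82035571 to 82037453, plus strand), varied widely between libraries of each group. Its level was 47.6, 10.9, 7.78 and 79.3 CPM in Apoe-/- microbead libraries, against 0, 35.5, 12.2 and 33.9 CPM in Apoe-/- sham libraries. In WT retinas it was 50.7, 117 and 123 CPM in microbead libraries, against 27.3, 0, 88.7 and 40.9 CPM in sham libraries. Sham libraries with 0 reads occurred once in each genotype, and microbead and sham values overlapped in both. In log2 units, microbead over sham came to 1.03 in Apoe-/- (SE 0.88, adjusted p = 0.802 in edgeR) and to 1.26 in WT (SE 0.75, adjusted p = 0.716). Apoe-/- microbead libraries were lower in mean than WT microbead libraries, 36.4 ± 33.9 (SD, n = 4) against 96.8 ± 40.0 CPM (SD, n = 3), with a log2 difference of -1.35 (SE 0.77, adjusted p = 0.732). The Apoe-/- microbead over sham value was 0.27 without Apoe-/- microbead library 4 and 0.57 without Apoe-/- sham library 1, and the WT value was 2.10 without WT sham library 3.

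Ccl7, a further Ccr2 ligand between the other two on the chromosome (82045712 to 82047525), was near the limit of detection. It had 0, 0, 1 and 1 reads in Apoe-/- microbead libraries and 0 reads in each of the 4 Apoe-/- sham libraries. In WT it had 0, 3 and 4 reads in microbead libraries and 0, 0, 3 and 0 reads in sham libraries. No difference was detectable at this depth.

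**Figure D2:**
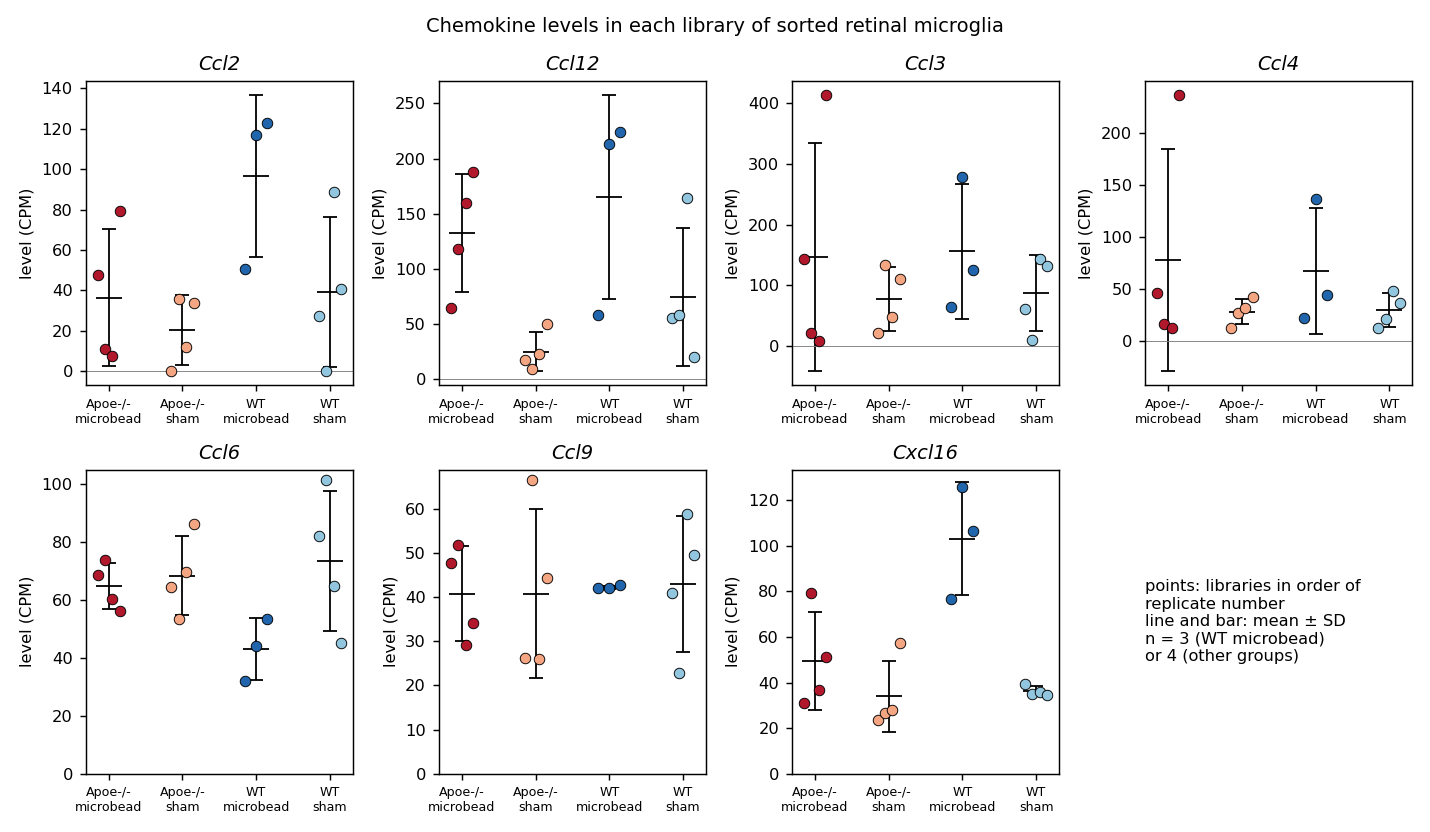
Level in CPM of each tested chemokine in every library, Apoe-/- microbead, Apoe-/- sham, WT microbead and WT sham from left to right, with the group mean and SD (n = 4, and n = 3 for WT microbead). The 4 Apoe-/- microbead libraries are above the 4 Apoe-/- sham libraries for Ccl12, the 3 WT microbead libraries are above the 4 WT sham libraries for Cxcl16, and a high Apoe-/- microbead library stands apart for Ccl3 and Ccl4.

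Ccl3 and Ccl4 encode macrophage inflammatory proteins 1 alpha and 1 beta, attractants of monocytes and T cells, and are neighbours on chromosome 11 (83647844 to 83649355, minus strand, and 83662584 to 83664683, plus strand). Ccl3 differed widely between libraries. It stood at 143, 21.9, 7.78 and 414 CPM in Apoe-/- microbead libraries, against 21.4, 133, 47.0 and 110 CPM in Apoe-/- sham libraries. In WT it stood at 63.7, 279 and 125 CPM in microbead libraries, against 60.8, 10.5, 144 and 131 CPM in sham libraries. The highest and the lowest Ccl3 values of the series were thus both in Apoe-/- microbead libraries, and the groups overlapped in both genotypes. The log2 fold change was 1.00 (SE 0.85, adjusted p = 0.8 in edgeR) in Apoe-/- and 0.85 (SE 0.86, adjusted p = 0.849) in WT.

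Ccl4 followed the same libraries. Its level was 45.6, 16.4, 11.7 and 237 CPM in Apoe-/- microbead libraries, against 11.9, 26.6, 31.3 and 41.7 CPM in Apoe-/- sham libraries. In WT it was 21.7, 136 and 44.0 CPM in microbead libraries, against 12.2, 21.0, 48.0 and 36.6 CPM in sham libraries. A high library in each microbead group (Apoe-/- library 4 and WT library 2) lay far above the rest, which overlapped with sham. On the log2 scale, microbead over sham was 1.52 in Apoe-/- (SE 0.77, adjusted p = 0.7 in edgeR) and 1.20 in WT (SE 0.75, adjusted p = 0.73). Without Apoe-/- microbead library 4 the Apoe-/- value was -0.18 for Ccl4 and -0.37 for Ccl3, so the positive sign in that genotype rested on this library. Without WT microbead library 2 the WT value was 0.15 for Ccl4 and 0.12 for Ccl3, and without WT sham library 2 it was 0.49 for Ccl3.

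Ccl6 and Ccl9 are chemokines of the mouse that act on Ccr1 and are made by macrophages without strong stimulation. Ccl6 (chromosome 11, 83587882 to 83593087) was at 68.4, 73.8, 60.3 and 56.0 CPM in Apoe-/- microbead libraries, against 64.2, 53.3, 69.6 and 86.1 CPM in Apoe-/- sham libraries. In WT it was at 31.9, 44.0 and 53.4 CPM in microbead libraries, against 82.0, 101, 64.7 and 45.2 CPM in sham libraries. The Apoe-/- microbead libraries lay within the range of the Apoe-/- sham libraries, while the WT microbead libraries lay at the low end of the WT values and overlapped with sham library 4 only. The log2 fold change was -0.10 (SE 0.28, adjusted p = 0.953 in edgeR) in Apoe-/- and -0.77 (95% interval -1.37 to -0.16, unadjusted p = 0.0162, adjusted p = 0.517) in WT. The difference between these responses was 0.66 (SE 0.40, adjusted p = 1). On the log2 TPM scale the WT value was 0.039 (adjusted p = 0.978 in limma), a scale on which the median of all genes in that comparison was 0.45. Each Apoe-/- microbead library was above each WT microbead library in CPM, which held for 3.14% of all genes in this direction, with a log2 difference of 0.57 (SE 0.30, adjusted p = 0.7 in edgeR) that was -0.36 on the log2 TPM scale.

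Ccl9 (chromosome 11, 83572919 to 83578636) had nearly equal mean CPM in the 4 groups. It stood at 47.6, 51.9, 29.2 and 34.2 CPM in Apoe-/- microbead libraries, against 26.2, 66.6, 26.1 and 44.4 CPM in Apoe-/- sham libraries. The WT microbead libraries had 42.0, 42.0 and 42.7 CPM, against 41.0, 22.7, 58.8 and 49.5 CPM in WT sham libraries. All 4 group means lay between 40.7 and 43.0 CPM. The log2 fold change was 0.06 (95% interval -0.68 to 0.80) in Apoe-/- and -0.03 (95% interval -0.76 to 0.69) in WT, intervals that still allow a change of more than 1.5-fold. In TPM the means were farther apart, at 4.58 and 3.61 in Apoe-/- microbead and sham libraries, against 11.8 and 8.28 in WT microbead and sham libraries. On the log2 TPM scale the WT value was 0.69 (adjusted p = 0.457 in limma), where the median of all genes was 0.45. Between microbead groups, Apoe-/- against WT, that median was -0.56.

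Cxcl16 came closest to the threshold in WT. Cxcl16 encodes a chemokine that is made as a membrane protein, released by the protease Adam10, and recognised by Cxcr6 on T cells; it lies on chromosome 11 from 70453983 to 70459984, minus strand. In Apoe-/- retinas its level was 31.1, 79.2, 36.9 and 51.3 CPM in microbead libraries, against 23.8, 26.6, 27.8 and 57.4 CPM in sham libraries. In WT retinas it was 76.8, 126 and 107 CPM in microbead libraries, against 39.5, 34.9, 36 and 34.4 CPM in sham libraries. The WT groups did not overlap and the WT sham libraries were close together, while the Apoe-/- groups overlapped.

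The log2 fold change of Cxcl16 was 0.52 (SE 0.34, 95% interval -0.19 to 1.24, adjusted p = 0.751 in edgeR) in Apoe-/- and 1.51 (SE 0.32, 95% interval 0.83 to 2.18) in WT. The WT value, about 2.84-fold, had an unadjusted p of 0.000159 that ranked 18 of 6521 and an adjusted p of 0.0515, just short of passing the threshold. Under DESeq2 the adjusted p was 0.0107, and without WT microbead library 1, Apoe-/- sham library 2 or 4, or Apoe-/- microbead library 1 or 2, each left out alone, edgeR gave 0.0346 to 0.0496. Over all alternatives run it ranged from 0.01 to 0.571, the highest without WT microbead library 2, and the log2 fold change from 1.33 to 2.07. The Apoe-/- value was 0.23 without Apoe-/- microbead library 2 and 0.90 without Apoe-/- sham library 4. The difference between the responses, Apoe-/- minus WT, was -0.98 (95% interval -1.97 to 0.0053, unadjusted p = 0.0511, adjusted p = 1 in edgeR). Apoe-/- microbead libraries averaged 49.6 ± 21.5 CPM (SD, n = 4) and WT microbead libraries 103 ± 24.8 CPM (SD, n = 3), a log2 difference of -1.08 (SE 0.32, unadjusted p = 0.00335, adjusted p = 0.475). The antisense gene Zmynd15 shares 552 exon bases with Cxcl16 and had 64 reads over all libraries, and whether reads were counted by strand is not given in the sources used here.

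Rod markers, a sign of RNA from photoreceptors, were also measured. Their 15 genes summed to 188 to 2670 CPM in Apoe-/- microbead and 158 to 1660 CPM in Apoe-/- sham libraries, against 104 to 668 CPM in WT microbead and 592 to 2710 CPM in WT sham libraries. Of 14 tested rod genes, 14 had a positive log2 fold change in Apoe-/- (median 0.83) and 0 in WT (median -2.07), and 0 were called in either. Monocyte markers summed to 29.6 to 72.5 CPM in Apoe-/- microbead and 31.3 to 138 CPM in Apoe-/- sham libraries, against 34.8 to 95 CPM in WT microbead and 18 to 55.9 CPM in WT sham libraries. The 8 neutrophil markers summed to 1.56 to 29 CPM in Apoe-/- microbead and 1.74 to 84.4 CPM in Apoe-/- sham libraries, against 6 to 17.3 CPM in WT microbead and 15.6 to 36.6 CPM in WT sham libraries. Of these markers Cxcr2 had 147 reads in 14 of the libraries, S100a9 and Camp had 0 reads in all, and S100a8, Ly6g, Retnlg, Mmp9 and Ngp had 1 to 3 reads each. The part of other cells in the chemokine values was not tested.

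Cxcl10 and Cxcl2 were too low to compare. Cxcl10, an interferon-induced ligand of Cxcr3 on chromosome 5 (92346638 to 92348889), had 0, 0, 1 and 2 reads in Apoe-/- microbead libraries and 0, 1, 1 and 1 reads in Apoe-/- sham libraries. It had 0, 10 and 0 reads in WT microbead libraries and 8, 0, 7 and 0 reads in WT sham libraries. Cxcl2, a neutrophil attractant acting on Cxcr2 (chromosome 5, 90903871 to 90905938), had 1, 0, 0 and 3 reads in Apoe-/- microbead libraries and 0 reads in each Apoe-/- sham library, against 0, 5 and 3 reads in WT microbead libraries and 0, 0, 2 and 0 reads in WT sham libraries. Reads of Cxcl10 were scattered over 8 libraries of both treatments. Those of Cxcl2 lay in 5 libraries, of which WT sham library 3 (2 reads) was the only sham library. The antisense gene Art3 shares 133 exon bases with Cxcl10 and had 11 reads over all libraries. Reads that lie in the shared bases cannot be told apart without knowing the strand. As a measure of background, olfactory receptor genes, which microglia should lack, averaged 0.428 to 1.24 TPM per library, and their 95th percentile was 1.71 to 4.71 TPM. Ccl7, Cxcl10 and Cxcl2 were each above that percentile in 3 of 15 libraries, whereas Ccl3, Ccl4 and Ccl6 were above it in all 15. Ccl12 was above it in 14, Ccl2 and Cxcl16 in 13 each and Ccl9 in 12 of 15 libraries. Of the 31-base stretches of Cxcl2, 7.59% also occur in other genes, mostly Cxcl3, so its few reads cannot all be assigned to it with certainty.

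Levels were compared between the chemokines as TPM, which takes transcript length into account. Together the 10 genes summed to 98.1 to 671 TPM in Apoe-/- microbead and 55.9 to 139 TPM in Apoe-/- sham libraries, against 170 to 911 TPM in WT microbead and 97.9 to 383 TPM in WT sham libraries. On the log2 TPM scale the median of all genes was 0.45 for WT microbead against WT sham. It was -0.56 for Apoe-/- microbead against WT microbead, so TPM of different groups are not on an equal footing. The order in Apoe-/- microbead libraries was Ccl12 (mean 98.4 TPM), Ccl3 (79.4), Ccl4 (47.3), Ccl6 (18.7), Ccl2 (16.8), Cxcl16 (5.73) and Ccl9 (4.58). In Apoe-/- sham libraries it was Ccl3 (mean 25.4 TPM), Ccl6 (20.8), Ccl12 (16.2), Ccl4 (11.2), Ccl2 (4.93), Ccl9 (3.61) and Cxcl16 (3.45). Neighbours at the top of these orders did not separate library by library. Ccl12 was above Ccl3 in 2 of 4 Apoe-/- microbead libraries, and Ccl3 was above Ccl6 in 2 of 4 Apoe-/- sham libraries. Ccl4 was above Ccl6 in only 1 of 4 Apoe-/- microbead libraries, library 4, where Ccl4 stood at 156 TPM. The higher mean of Ccl4 than of Ccl6 in that group thus rested on this library.

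In WT microbead libraries the order was Ccl12 (mean 247 TPM), Ccl3 (140), Ccl2 (83.6), Ccl4 (67.8), Ccl6 (25.8), Cxcl16 (24.2) and Ccl9 (11.8). In WT sham libraries it was Ccl12 (mean 66.5 TPM), Ccl3 (43.0), Ccl6 (24.4), Ccl4 (16.3), Ccl2 (15.2), Ccl9 (8.28) and Cxcl16 (4.6). Ccl12 was above Ccl3 in 3 of 3 WT microbead and 3 of 4 WT sham libraries, and Ccl2 was above Ccl4 in 2 of 3 WT microbead libraries. Cxcl10, Ccl7 and Cxcl2 took the last 3 places in each group, at mean levels of 3.36 TPM or less.

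The share of Ccl12 in the summed TPM separated the Apoe-/- groups. It was 26.2 to 73.5% in Apoe-/- microbead libraries and 5.3 to 23.7% in Apoe-/- sham libraries, without overlap. In WT libraries it was 35.4 to 48.2% after microbeads and 11.4 to 44.4% after sham, which overlap. Ccl6 took the opposite course, with a share of 3.32 to 13.1% in Apoe-/- microbead and 16.3 to 41.3% in Apoe-/- sham libraries, against 2.58 to 7.95% in WT microbead and 6.29 to 33.3% in WT sham libraries. Shares of a sum depend on each other. Those of Ccl12 rest on the same reads as its CPM above and are no separate result. A lower share of Ccl6 need not mean a lower level of Ccl6. Mean Ccl6 was 64.6 and 68.3 CPM in Apoe-/- microbead and sham libraries, against 43.1 and 73.3 CPM in WT microbead and sham libraries.

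**Figure D3:**
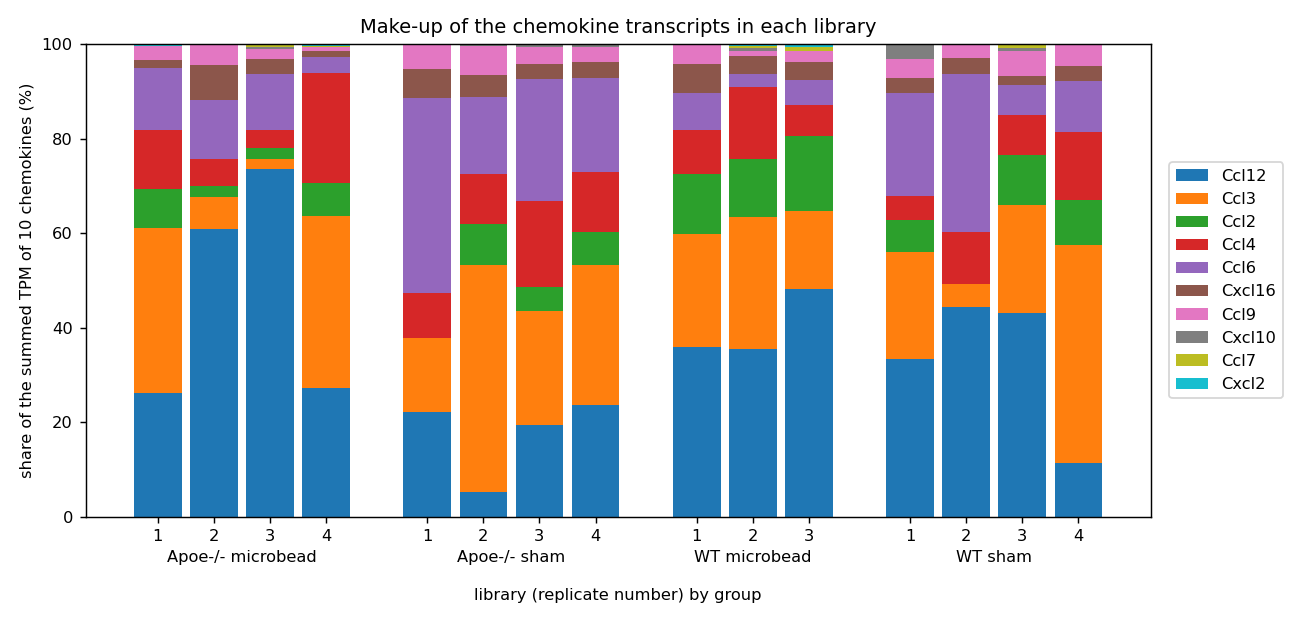
Share in percent of the summed TPM of the 10 chemokines that each gene took in every library, Apoe-/- microbead, Apoe-/- sham, WT microbead and WT sham from left to right. Ccl12 takes 26.2 to 73.5% in Apoe-/- microbead libraries and 5.3 to 23.7% in Apoe-/- sham libraries, and Ccl6 takes 16.3 to 41.3% in the Apoe-/- sham libraries.

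The chemokines fell into different patterns across the 15 libraries. Likeness was measured as the root mean square difference of log2 CPM, each gene scaled to mean 0 and SD 1, so that 0 is an identical pattern. Ccl2 and Ccl3 (0.495) and Ccl3 and Ccl4 (0.552) were the most alike of the 21 pairs of tested members. Next came Ccl12 and Cxcl16 (0.773), nearly level with Ccl2 and Ccl4 (0.774), and Ccl2 and Ccl6 (1.69) were the least alike. Among all other tested genes, the nearest to Ccl3 were Junb (0.202), Dusp1 (0.218) and Fos (0.228). The nearest to Ccl2 were Egr1 (0.284), Fos (0.318) and Dusp1 (0.352), and the nearest to Ccl4 included Atf3 (0.433) and Klf6 (0.458). Most of these genes encode immediate early transcription factors or the phosphatase Dusp1, which respond within minutes to many stimuli.

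The nearest genes to the remaining chemokines were of other kinds. Those nearest to Cxcl16 were Pld3 (0.411), Lyz2 (0.437), which encodes lysozyme, and Sqstm1 (0.482), which encodes an autophagy receptor. Those nearest to Ccl12 were Lman1 (0.474), a cargo receptor of the secretory pathway, Tmem176a (0.536) and Il4ra (0.541), a chain of the interleukin 4 receptor. Ccl6 and Ccl9 had no close partner, with Itga9 (0.623) and Rsf1 (0.626) as the nearest. These are descriptions over libraries that share depth and handling, with no test.

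A list of 23 immediate early and heat shock genes, which are known to be induced by tissue dissociation among other stimuli, was summed in each library. The sum was 3089, 453, 348 and 10860 CPM in Apoe-/- microbead libraries, against 400, 2757, 915 and 2844 CPM in Apoe-/- sham libraries. In WT it was 1831, 10280 and 5626 CPM in microbead libraries, against 1718, 456, 4820 and 3075 CPM in sham libraries. It thus differed 31.2-fold between libraries and overlapped between treatments in both genotypes. Of the 20 genes of the list that were tested, 20 had a positive log2 fold change in Apoe-/- (median 1.22) and 20 in WT (median 1.04), and 0 were called in either. In Apoe-/- the sum nevertheless had a median of 1770 CPM in microbead and 1840 CPM in sham libraries, with 10860 CPM in microbead library 4. Ccl3 kept in step with the sum: its CPM was 2.23 to 5.36% of that sum in every library (median 3.81%). Ccl2 amounted to 0 to 2.77% of the sum and Ccl4 to 0.707 to 4.6%, while Ccl12 ranged from 0.322 to 45.8%, Ccl6 from 0.428 to 22.2% and Cxcl16 from 0.473 to 17.5%. The libraries with the highest sums also held the highest Ccl12 values. These were WT sham library 3 (164 CPM), WT microbead libraries 3 (224) and 2 (213) and Apoe-/- microbead library 4 (188). Apoe-/- microbead libraries 2 and 3 had low sums with Ccl12 at 117 and 159 CPM.

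**Figure D4:**
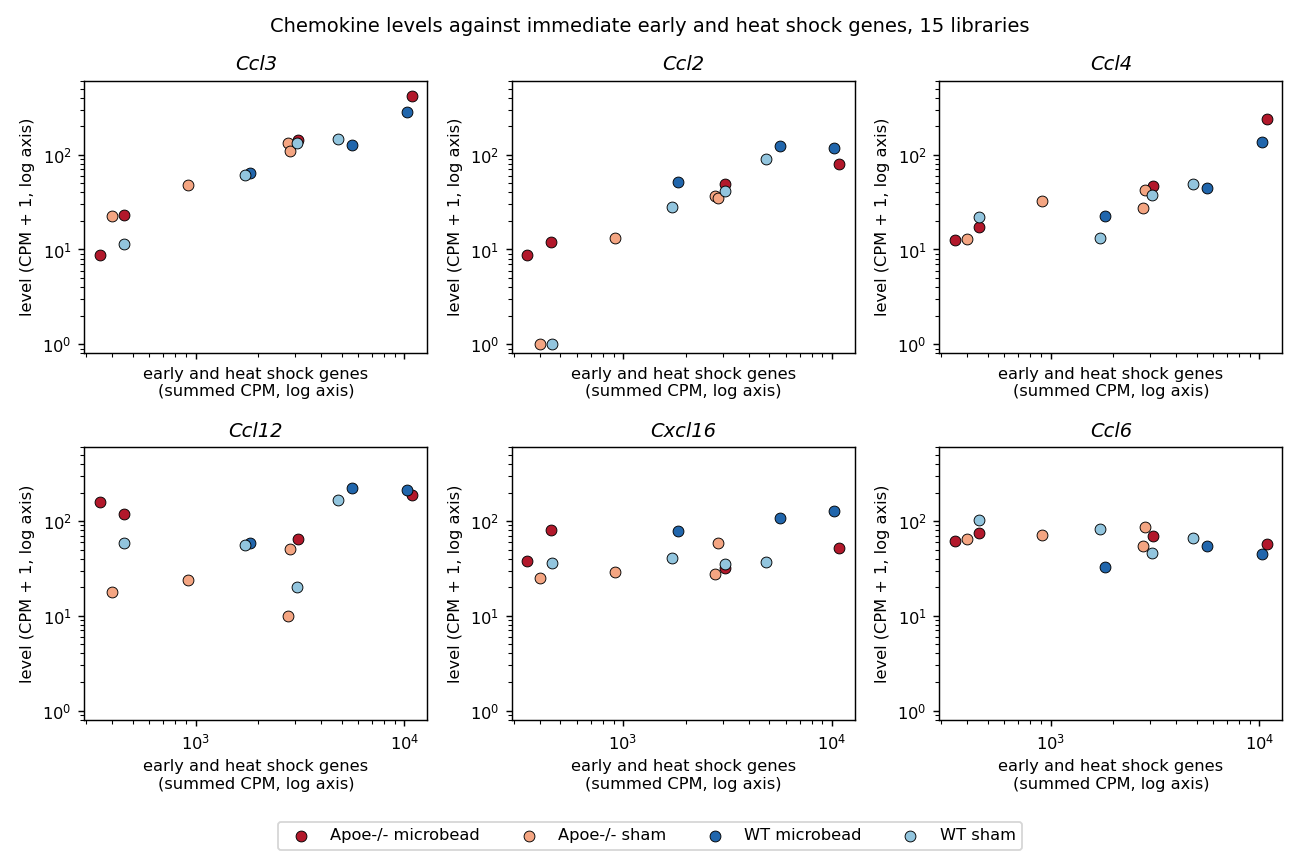
CPM + 1 of 6 chemokines against the summed CPM of 23 immediate early and heat shock genes in the 15 libraries, both on log axes, coloured by group. Ccl3, Ccl2 and Ccl4 are low in the libraries with a low sum and high in those with a high one. Ccl12 is also highest in the libraries with the highest sums (164 to 224 CPM). It stands at 159 CPM in the Apoe-/- microbead library with the lowest sum (348 CPM).

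With the level of these genes as a covariate in the edgeR fit, a step chosen after seeing the data, the log2 fold change of Ccl3 was -0.46 (SE 0.33, adjusted p = 0.77) in Apoe-/- and -0.50 (SE 0.33, adjusted p = 0.772) in WT. Ccl4 stood at 0.19 in Apoe-/- and -0.12 in WT, and Ccl2 at 0.12 and 0.41. Ccl12 stood at 2.30 (SE 0.57, adjusted p = 0.676) in Apoe-/- and 0.78 in WT, and Cxcl16 at 0.50 in Apoe-/- and 1.41 (SE 0.35, adjusted p = 0.168) in WT. The covariate, the mean log2 CPM of the tested genes of the list, holds Junb, Dusp1 and Fos, the genes nearest to Ccl3. The list sum had a median of 5630 CPM in WT microbead and 2400 CPM in WT sham libraries. In WT the covariate can thus also take up part of the difference between treatments. In Apoe-/- the medians of the sum were 1770 CPM after microbeads and 1840 CPM after sham. The fitted values therefore do not separate an effect of microbeads from that of the early genes.

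Between genotypes no member was called. Apoe-/- sham against WT sham libraries gave 0 of 7, where 0.0153% of all genes were called. At an unadjusted p of 0.05, 1 of 7 passed (Ccl12), where 8.68% of all genes passed. The log2 difference was positive for 0 of 7 members and for 48.9% of all genes, with medians of -0.16 and -0.01. Apoe-/- microbead against WT microbead libraries gave 0 of 7, where 0.046% of all genes were called, and 1 of 7 at an unadjusted p of 0.05 (Cxcl16), where 7.19% passed. The difference was positive for 2 of 7 members and for 51% of all genes, with medians of -0.07 and 0.01. The test of the difference between the microbead responses gave 0 of 7, where 0% of genes were called, and 0 of 7 at an unadjusted p of 0.05, where 3.39% passed. It was positive for 5 of 7 members and for 50.4% of all genes, with medians of 0.15 and 0.0045. These comparisons share groups and are not independent of each other. Codes in the names of the deposited tables, which look like well positions, have 1 letter for all Apoe-/- libraries and another for all WT libraries, and lower numbers for microbead than for sham libraries within each letter. If they are wells, an effect of position cannot be told apart from one of genotype or treatment.

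Most other chemokine genes did not pass the filter on low counts. Of 28 other ligands, 26 had reads in some library and only Ccl5, a chemokine best known from T cells, was tested. Ccl5 was at 4.14, 13.7, 31.1 and 7.78 CPM in Apoe-/- microbead libraries, against 11.9, 4.44, 20.9 and 5.22 CPM in Apoe-/- sham libraries. In WT it was at 21.7, 26.0 and 18.7 CPM in microbead libraries, against 10.6, 5.24, 9.59 and 6.45 CPM in sham libraries. The WT groups did not overlap, as for 6.32% of all genes in this direction, and the Apoe-/- groups did. Ccl5 had few reads, 2 to 16 in Apoe-/- microbead and 1 to 12 in Apoe-/- sham libraries. In WT it had 14 to 26 reads in microbead and 3 to 8 in sham libraries. In edgeR, microbead over sham was 0.27 on the log2 scale in Apoe-/- (SE 0.59, adjusted p = 0.943) and 1.42 in WT (SE 0.57, adjusted p = 0.531).

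Of 23 chemokine receptors, 21 had reads and 4 were tested, of which 0 were called in any comparison. Cx3cr1, the fractalkine receptor that marks microglia, was the most abundant, at 1536 ± 440 CPM in Apoe-/- microbead and 1529 ± 444 CPM in Apoe-/- sham libraries (SD, n = 4 each), against 1640 ± 88.9 CPM in WT microbead (SD, n = 3) and 1888 ± 143 CPM in WT sham libraries (SD, n = 4). Ccrl2, an atypical receptor that presents chemerin, was at 21.6 ± 14.9 and 8.11 ± 5.15 CPM in Apoe-/- microbead and sham libraries (SD, n = 4 each), against 45.5 ± 30.2 (SD, n = 3) and 12.7 ± 10.4 CPM (SD, n = 4) in WT microbead and sham libraries. Its log2 fold change was 1.44 (SE 0.73, adjusted p = 0.7 in edgeR) in Apoe-/- and 1.86 (SE 0.62, adjusted p = 0.446) in WT. Cxcr2, the receptor for Cxcl2 on neutrophils, had -0.88 (SE 0.80) in Apoe-/- and -1.11 (SE 0.82) in WT.

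Of 19 genes of NF-kB signalling and early cytokines, 15 were tested and 0 were called. Their median log2 fold change was 0.53 in Apoe-/- (12 positive) and 0.58 in WT (11 positive), against 0.0079 and -0.01 over all genes. The genes with the smallest p were Ikbkg, which encodes the regulatory subunit of the kinase that frees NF-kB (1.32, adjusted p = 0.7 in edgeR), and Nfkbiz, an inducible partner of NF-kB (1.39, adjusted p = 0.7), in Apoe-/-. In WT they were Nfkbiz (1.82, adjusted p = 0.338) and Tnf, the inflammatory cytokine (2.09, adjusted p = 0.454). Tnf was at 21.2 ± 26.4 CPM in Apoe-/- microbead and 9.24 ± 4.16 CPM in Apoe-/- sham libraries (SD, n = 4 each), against 88.3 ± 71.5 CPM in WT microbead (SD, n = 3) and 19.9 ± 13.5 CPM in WT sham libraries (SD, n = 4).

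Of 18 genes of the interferon axis, 13 were tested and 0 were called, with a median of 0.32 in Apoe-/- (10 positive) and -0.0086 in WT (6 positive). Irf1, a transcription factor of the interferon response, had the smallest p in Apoe-/-, where microbead over sham was 1.43 on the log2 scale (SE 0.45, adjusted p = 0.7 in edgeR). It stood at 49.4 ± 22.6 CPM in Apoe-/- microbead and 17.6 ± 5.98 CPM in Apoe-/- sham libraries (SD, n = 4 each), against 40.2 ± 18.3 CPM in WT microbead (SD, n = 3) and 31 ± 14.8 CPM in WT sham libraries (SD, n = 4). In WT the smallest p belonged to the interferon receptor genes Ifnar2 (0.37, adjusted p = 0.776) and Ifnar1 (0.27, adjusted p = 0.84). Of the 2 proteases that release Cxcl16 from the membrane, Adam10 had 0.14 (SE 0.31) in Apoe-/- and 0.32 (SE 0.31) in WT, and Adam17 had -0.12 (SE 0.28) and -0.02 (SE 0.29).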

How the data were processed

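RNA of sorted retinal microglia was measured in 15 libraries. The authors deposited estimated counts and TPM per transcript, with effective transcript lengths in bases, per the file headers, and a gene table of TPM. The submitters' processing notes name Salmon 1.4.0, R 4.0.3, DESeq2 1.30.1 and mm10. The gene TPM are labelled SMARTSeq2 by the authors. For the annotation release, the library type set in Salmon and use of strand, nothing is given in the sources used here.

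GENCODE release M21 on mm10 gave the gene of 116023 of 116945 transcripts. Expected counts were summed per gene and rounded. Likewise summed, TPM equalled the gene TPM deposited by the authors in all 150 values of the 10 chemokines, at a relative tolerance of 0.001. The edgeR package (version 4.0.16, R 4.3.3) fitted 1 model of the 4 groups to 6521 genes (filterByExpr, sizes over the genes kept, TMM), with 34.4% as the common biological coefficient of variation. Its two-sided quasi-likelihood F-test was adjusted by Benjamini-Hochberg with a threshold of 0.05. There were 5 contrasts: microbead over sham in either genotype, the Apoe-/- response minus the WT response, and Apoe-/- over WT in either treatment. Log2 CPM for likeness used a prior count of 2. Limits from 0 reads take 3 reads and cover counting error only. The fit was tested on simulated data.

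Members and gene lists were chosen with earlier results of these data known. All 10 members are named. Of the other lists, genes are named that were called or had 1 of the 2 smallest p of their list in microbead over sham of either genotype. Cx3cr1 was added for its level, after it was seen, and a few genes that these rules name are not reported here. Alternatives were DESeq2 1.42.0, RLE factors, other filters, length offsets, satellite genes left out, only the groups compared, limma 3.58.1 on log2(TPM + 1), a replicate block and each library left out. A covariate for early genes was added after seeing the data. Replicates differed by more than sampling noise (chi-square over its degrees of freedom at least 2.21). Libraries with the same number did not deviate together in all pairs, with correlations of -0.161 to 0.223, and were not treated as pairs.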

Additional observations from a re-analysis of the deposited data

Results flagged for a closer look

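In 2 of 21 groups of 4 libraries, 1 library lay far from the rest by Dixon's ratio, the gap to the nearest library over the whole range, at its 95% critical value for 4 libraries. Chance flags about 1 in 20 such groups. For Ccl4, Apoe-/- microbead library 4 (237 CPM) gave a ratio of 0.849, the other three lying between 11.7 and 45.6 CPM. For Cxcl16, Apoe-/- sham library 4 (57.4 CPM) gave a ratio of 0.88, the other three lying between 23.8 and 27.8 CPM.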

How the results depend on the processing

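Of 867 values of members under an alternative, 779 kept their direction and side of the threshold, 13 passed it where the value reported above did not, and 69 changed sign, 61 of them where that value was under 0.5 on the log2 scale. For 6 DESeq2 values the adjusted p was NA. Causes were not tested.

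Genes called between Apoe-/- microbead and Apoe-/- sham numbered 0 (453 at an unadjusted p of 0.05), 37 with no filter and 1 in limma. For WT microbead against WT sham they numbered 13, and 36 in DESeq2, 124 with no filter, 5 with a filter of 10 reads in 7 libraries, 7 with length offsets, 21 without satellite genes, 33 with only these groups, 43 in limma and 0 to 29 with a library left out (0 without WT microbead library 2, 29 without WT microbead library 1, 28 without Apoe-/- sham library 2, 1 to 4 without a WT sham library). For the difference of responses they were 0, and 45 with no filter and 1 in limma. For Apoe-/- sham against WT sham they were 1, and 41 with no filter and 3 in limma. For Apoe-/- microbead against WT microbead they were 3, and 26 in DESeq2, 73 with no filter, 25 in limma, 1 with the stricter filter, length offsets or the covariate, and 1 to 7 with a library left out.

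Among members, Cxcl16 was called in WT in DESeq2 (1 member), with no filter, without satellite genes, with only these groups and in limma (adjusted p 0.01 to 0.0483), and without WT microbead library 1 or without any of Apoe-/- sham libraries 2 and 4 and Apoe-/- microbead libraries 1 and 2 (0.0346 to 0.0496). With no filter 2 were called in Apoe-/- (Ccl12, 2.52, and Ccl4, 1.68) and 1 between sham groups (Ccl12, -1.75). The SE of each was 0.39 with no filter. With the filter it was 0.60 (Ccl12) and 0.77 (Ccl4) in Apoe-/- and 0.60 between sham groups. In the filtered fit the Apoe-/- value of Ccl4 was -0.18 without Apoe-/- microbead library 4.

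The replicate block, with numbers that do not pair the libraries, gave 7 calls in WT and 1 between microbead groups, and called no member. Under it the difference of responses was -0.48 for Ccl3 and -0.33 for Ccl4, and Ccl4 was -0.52 between microbead groups.

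The other sign changes were as follows. With no filter Ccl6 in Apoe-/- was 0.012 and Ccl9 in WT 0.016. With length offsets Ccl6 was 0.13 and Cxcl16 0.0091 between sham groups. On the log2 TPM scale, where the median of all genes was 0.45 in WT, -0.37 for the difference of responses, -0.20 between sham and -0.56 between microbead groups, WT values were 0.039 for Ccl6 and 0.69 for Ccl9, differences of responses -1.66 (Ccl3), -0.87 (Ccl4), -0.15 (Ccl6) and -0.43 (Ccl9), and differences between microbead groups -1.30 (Ccl4) and -0.36 (Ccl6). With the covariate, Ccl3 was -0.46 in Apoe-/- and -0.50 in WT, Ccl4 -0.12 in WT, Ccl3 0.52 and Ccl4 0.50 between sham groups, and Ccl12 0.14, Ccl3 0.56 and Ccl9 0.15 between microbead groups.

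With a library left out, ranges that include a change of sign were, for microbead against sham in Apoe-/-, -0.37 to 1.39 (Ccl3), -0.18 to 1.87 (Ccl4), -0.19 to 0.0197 (Ccl6) and -0.13 to 0.34 (Ccl9), and in WT -0.24 to 0.16 (Ccl9). For the difference of responses they were -1.09 to 0.25 (Ccl2), -1.22 to 0.89 (Ccl3), -1.38 to 1.38 (Ccl4) and -0.11 to 0.37 (Ccl9). Between sham groups they were -0.58 to 0.16 (Ccl3), -0.35 to 0.30 (Ccl4), -0.26 to 0.10 (Ccl6), -0.44 to 0.040 (Ccl9) and -0.47 to 0.045 (Cxcl16), and between microbead groups -1.44 to 0.66 (Ccl3), -1.47 to 1.28 (Ccl4) and -0.20 to 0.059 (Ccl9).

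Depth limits Ccl7, Cxcl10 and Cxcl2, which had at most 4, 10 and 5 reads in a library, and widens the limit of detection in Apoe-/- sham library 2 to 13.3 CPM.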
